A study of Mus musculus with 9 samples.

Results

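The CC chemokine ligands examined here are 9 secreted proteins that guide leukocytes: Ccl2, Ccl7, Ccl12, Ccl3, Ccl4, Ccl9, Ccl5, Ccl17 and Ccl22. They were chosen by gene symbol among the 19938 genes with a symbol of their own on the array, and each was represented by 1 transcript cluster, the set of probes for a gene locus. Their RNA was measured on 9 Affymetrix arrays of conventional dendritic cells (cDC) sorted from spleens of 129SvEv/Tac mice. The groups were resting wild-type (WT) cDC1 with 1 array and, with 2 arrays each, Batf-/- Batf3-/- double knockout (DKO) cDC2 activated with IFN-gamma and LPS, WT cDC2 activated in the same way, resting DKO cDC2 and resting WT cDC2. Activated cells had received 100 ng/ml IFN-gamma for 1 h, followed by 3 h with LPS of E. coli added at 1 µg/ml. Both genes were missing in the same mice, so the share of either factor cannot be told apart. The labels give no age, and neither the origin of replicates from different mice nor the meaning of a replicate number is stated, so the p-values rest on a spread between arrays that may be technical.

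Chemokine ligands are released by a cell, bind G protein-coupled receptors on other leukocytes and draw them along a concentration gradient. In dendritic cells, Toll-like receptor and interferon signals switch many of these genes on through NF-kappaB, AP-1 and interferon regulatory factors, while some are already made at rest. BATF and BATF3 are AP-1 family factors that lack a transactivation domain of their own and bind DNA with JUN proteins, often beside IRF4 or IRF8. cDC2 mainly present antigen to CD4 T cells, and cDC1 cross-present to CD8 T cells. Ccl2, Ccl7 and Ccl12 attract monocytes through Ccr2. Ccl3, Ccl4, Ccl9 and Ccl5 draw monocytes, T cells or NK cells. Ccl17 and Ccl22 are the ligands of Ccr4, a receptor of helper and regulatory T cells.

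In the annotation of assembly GRCm38.p6, the first 7 of these genes lie on chromosome 11 and Ccl17 and Ccl22 are close neighbours on chromosome 8. Promoter windows from RefSeq, with 250 bases before and 50 after the annotated start, were at hand for 5 of the 9 ligands. Ccl3 is shown because it covered the widest range over the arrays, and Ccl22 and Ccl17 because these neighbours read differently on the arrays. Ccl17 was dim, at a log2 intensity of 6.13 to 6.59 on all arrays. Whether its RNA was above background was not tested. Sequences are GRCm38.p6, written 5′ to 3′ along the gene. The Ccl3 window is chr11:83649329-83649628 (minus strand), that of Ccl22 chr8:94745434-94745733 (plus strand) and that of Ccl17 chr8:94810203-94810502 (plus strand). Capitals mark matches to the motifs named next.
Ccl3: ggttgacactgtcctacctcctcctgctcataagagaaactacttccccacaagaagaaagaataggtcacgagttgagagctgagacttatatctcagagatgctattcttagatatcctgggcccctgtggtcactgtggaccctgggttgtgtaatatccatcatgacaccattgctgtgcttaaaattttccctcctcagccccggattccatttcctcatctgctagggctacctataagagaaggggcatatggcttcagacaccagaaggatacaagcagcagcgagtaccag
Ccl22: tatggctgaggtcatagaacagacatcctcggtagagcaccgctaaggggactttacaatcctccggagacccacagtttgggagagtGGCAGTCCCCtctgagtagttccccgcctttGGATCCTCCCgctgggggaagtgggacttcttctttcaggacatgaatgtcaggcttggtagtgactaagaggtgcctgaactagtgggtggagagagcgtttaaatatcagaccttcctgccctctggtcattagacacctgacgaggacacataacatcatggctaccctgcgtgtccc
Ccl17: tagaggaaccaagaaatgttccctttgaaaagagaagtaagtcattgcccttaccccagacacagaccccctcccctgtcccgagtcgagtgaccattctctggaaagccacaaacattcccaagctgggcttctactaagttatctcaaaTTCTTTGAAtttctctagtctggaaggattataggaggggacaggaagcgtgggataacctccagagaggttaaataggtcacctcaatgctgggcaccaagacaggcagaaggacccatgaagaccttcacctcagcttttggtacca
The motifs searched on both strands were NF-kappaB (GGG, any 5 bases, CC), AP-1 (TGANTCA), ISRE (GAAA, any 2 bases, GAAA), GAS (TTCNNNGAA), CRE (TGACGTCA) and AP-1 joined to an IRF element (the AP-1 motif after GAAA, or after TTTC and any 4 bases). The Ccl22 window held 2 NF-kappaB matches, a motif found in 50.8% of the 32851 windows of the same length. The Ccl17 window held 1 GAS match, found in 8.3% of windows. The Ccl3 window held 0 matches. In the others, Ccl9 had 1 AP-1 match (7.81% of windows) and 1 NF-kappaB match, and Ccl12 had none. These matches describe letters only. A match is no evidence of binding, and these windows leave out more distant elements.

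Before the ligands, the labels and cells were checked. Batf read 5.31 to 5.44 (log2 intensity) on the 4 DKO arrays, against 6.74 to 9.07 on the 4 WT cDC2 arrays. Batf3 read 6.43 and 7.17 in resting and 6.65 and 6.90 in activated DKO cDC2, above the brightness rule explained next, against 7.71 and 7.58 in resting and 8.56 and 9.92 in activated WT cDC2. Both genes were lower on every DKO array than on any WT cDC2 array, by as little as 0.41 for Batf3. Where the probes lie relative to the deleted parts was not examined. The single cDC1 array read 9.33 for Xcr1 and 8.67 for Clec9a, against group means of at most 4.70 and 4.11 in cDC2. Of the other cDC1 markers, Cadm1, Itgae and Wdfy4 also read above every cDC2 group mean, though Cadm1 and Wdfy4 averaged up to 9.19 in cDC2. Tlr3 and Irf8 read above both resting cDC2 means but not every activated one. Tlr3 read 6.35 in cDC1, against 6.64 in activated WT cDC2. Irf8 read 9.94 in cDC1, against 11.97 in activated DKO and 11.89 in activated WT cDC2. Of 8 cDC2 markers, Irf4, Sirpa and Esam lay above the brightness rule in every cDC2 group, while the group means of Clec4a4, Itgam, Clec10a and Cd209a lay below it, at a log2 intensity under 5.94, in every group. Mgl2, the eighth, averaged 5.43 in resting and 5.19 in activated DKO cDC2, below the rule, against 6.14 in resting and 6.31 in activated WT cDC2, above it. Of 6 NK cell genes, Ncr1, Klrb1c, Gzma and Eomes lay below it in every group mean, while Prf1 read 6.14 to 6.17. Klrk1 averaged 7.52 in activated DKO and 7.26 in activated WT, against 6.16 in resting DKO and 5.67 in resting WT cDC2, and did not pass the activation test. Of 5 T cell genes on the array, Cd3d and Cd3g lay below the rule in every group mean, while Cd3e read 6.09 to 6.16 and Cd4, which cDC2 also express, up to 7.69. The 4 B cell genes on the array lay below the rule in every group mean. Of 6 neutrophil genes, S100a8, S100a9, Camp and Ngp lay above it in every group, with S100a9 at 8.05 to 8.55, and Ly6g and Retnlg below it. Of 5 genes of plasmacytoid dendritic cells, Bst2 and Tcf4 lay above it in every group and Siglech and Ly6d below it. Ccr9 averaged from 5.51 in cDC1 to 8.79 in resting WT cDC2. In bulk samples, fewer cells of a type and less RNA per cell cannot be told apart.

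To meet the brightness rule, a gene's mean in at least 1 group had to exceed the overall median. It was met by 10728 genes and by 8 of the 9 ligands. Ccl3, Ccl4, Ccl9, Ccl5, Ccl17 and Ccl22 were above 5.94 on all 9 arrays, Ccl2 and Ccl7 on 7 arrays each and Ccl12 on 0. The rule is only this median and not a limit of detection. The NK cell gene Prf1 and the T cell gene Cd3e also met it, with group means of 6.14 to 6.17 and 6.09 to 6.16. Whether Ccl2, Ccl7, Ccl9 and Ccl17, which read near these values, were above background was not tested. Ccl3 covered the widest range over the arrays, 4.95 log2 units, followed by Ccl4 with 3.09. Ccl5 and Ccl22 covered 1.46 and 1.00, and Ccl2, Ccl7 and Ccl17 less than 0.47 each. Levels of different genes come from different probes and were not set against each other.

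**Figure D1:**
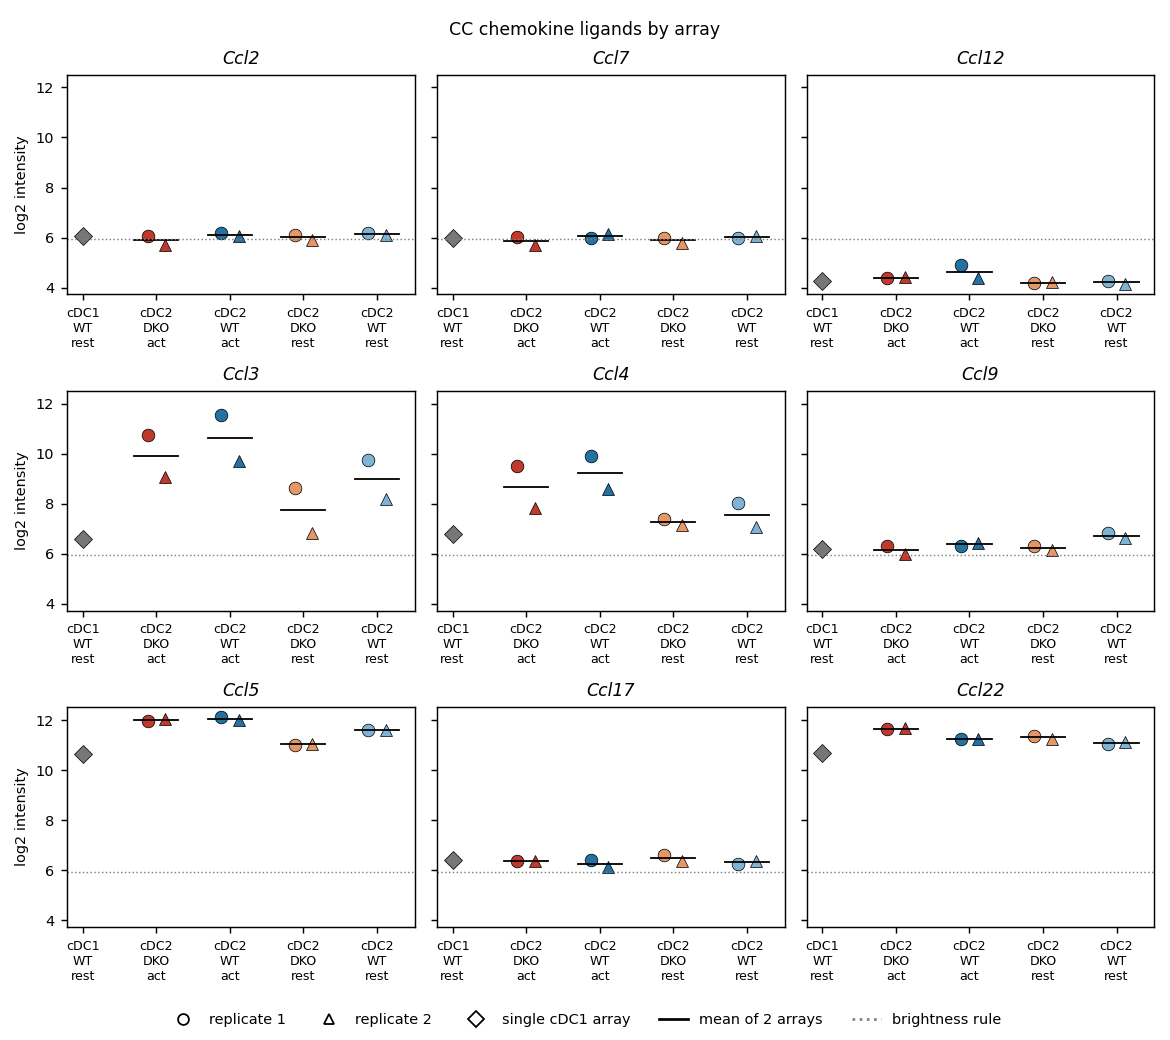
Log2 intensity of each CC chemokine ligand (vertical axis, one panel per gene) on every array, by group; circles are replicate 1, triangles replicate 2, diamonds the single cDC1 array, bars the mean of 2 arrays and the dotted line the brightness rule at 5.94. Ccl3 and Ccl4 spread widely both between and within groups, Ccl5 and Ccl22 are bright with close replicates, and Ccl2, Ccl7, Ccl12, Ccl9 and Ccl17 stay at or below 6.84.

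Differences are given as log2 values with their standard error from limma. The gap between the replicate numbers (replicate 2 minus replicate 1) stands beside each difference of a ligand between 2 groups, or is referred to where given before. Values that combine both states or both responses carry no gap of their own. The labels do not explain the numbers, yet arrays of the same number deviated together. Across the 10728 genes the gaps of any 2 cDC2 groups correlated at r = 0.454 to 0.695. The same comparisons were therefore also fitted with the replicate number as a block, and those values are named as such.

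Ccl3, also known as macrophage inflammatory protein 1 alpha, carried the largest replicate gap of the ligands. It read 6.58 in cDC1, 10.75 and 9.06 (replicates 1 and 2) in activated DKO, 11.54 and 9.73 in activated WT, 8.63 and 6.85 in resting DKO, and 9.76 and 8.19 in resting WT cDC2. Replicate 2 was lower by a similar amount in every cDC2 group, with gaps of -1.68, -1.81, -1.78 and -1.58 in that order. Ranked by the smallest of the 4 gaps among genes with the same sign in all groups, Ccl3 stood at place 2 of 10728, after Tnfsf4 (gaps from -1.97 to -1.79). A gap of at least 1 in the same direction in all 4 groups was seen for 11 genes that were lower in replicate 2 and 9 that were higher. This ranking was chosen after the values were seen. What the number stands for, and its part in the Ccl3 level, was not tested.

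**Figure D2:**
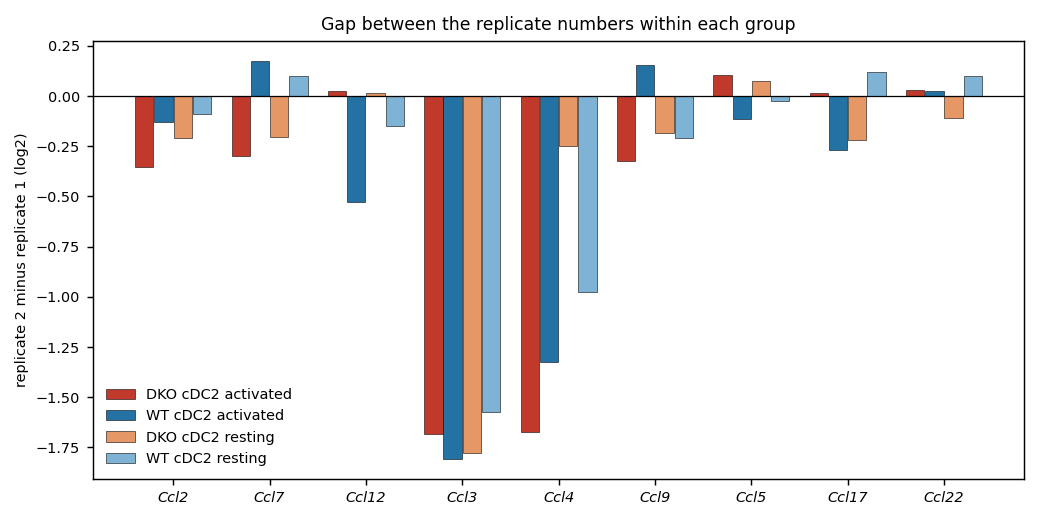
Replicate 2 minus replicate 1 (log2, vertical axis) for each CC chemokine ligand in the 4 cDC2 groups; each bar is 1 difference between 2 arrays. Ccl3 has gaps from -1.81 to -1.58 in all groups and Ccl4 from -1.67 to -0.25, whereas those of Ccl5 and Ccl22 stay within 0.12 of 0.

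The activation comparison set cDC2 activated with IFN-gamma and LPS against resting cDC2 in each genotype. No time in culture is recorded here for resting cells, so the stimuli and the time in culture cannot be told apart. Ccl5 (RANTES), which attracts T cells and monocytes, rose in both. It read 11.95 and 12.05 in activated DKO and 12.12 and 12.00 in activated WT cDC2, against 10.99 and 11.06 in resting DKO and 11.62 and 11.60 in resting WT cDC2. Activated arrays were higher than resting ones with no overlap in either genotype. The rise was 0.97 ± 0.09 in DKO (adjusted p = 0.00429, gaps of 0.10 activated and 0.08 resting) and 0.45 ± 0.09 in WT cDC2 (adjusted p = 0.0365, gaps of -0.11 and -0.02). In fold, this was 1.96 in DKO and 1.37 in WT cells. Ccl5 was the only ligand of the 8 tested to pass in either genotype, and 5.82% of all genes were higher in DKO and 3.97% in WT. The arrays of both states did not overlap for 4 of 8 ligands in each genotype (60.3% of all genes in DKO and 56.3% in WT). The DKO call held without each DKO array in turn (adjusted p from 0.0283 to 0.0393). The WT call was lost without each of the 4 WT arrays (0.39 to 0.51, adjusted p from 0.106 to 0.14).

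Ccl3 and Ccl4 had larger responses that did not pass without the block. Ccl4 (macrophage inflammatory protein 1 beta), a close relative of Ccl3, read 9.49 and 7.82 in activated DKO and 9.91 and 8.59 in activated WT cDC2. At rest it read 7.41 and 7.16 in DKO and 8.05 and 7.07 in WT. Activated and resting arrays did not overlap in either genotype. The differences of Ccl4 were 1.37 ± 0.67 in DKO (adjusted p = 0.217, gaps of -1.67 activated and -0.25 resting) and 1.69 ± 0.67 in WT (adjusted p = 0.15, gaps of -1.32 and -0.98). Those of Ccl3 were 2.16 ± 0.96 in DKO (adjusted p = 0.184, gaps of -1.68 and -1.78) and 1.66 ± 0.96 in WT (adjusted p = 0.302, gaps of -1.81 and -1.58). Within each replicate number Ccl3 stood higher after activation, by 2.12 and 2.21 in DKO and by 1.77 and 1.54 in WT cDC2. Across the numbers its WT arrays overlapped, since activated replicate 2 lay below resting replicate 1. Within each replicate number Ccl4 was also higher after activation, by 2.09 and 0.66 in DKO and by 1.86 and 1.52 in WT.

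With the replicate number as a block, both genes rose in both genotypes by limma. The standard error of Ccl3 was then 0.09 (adjusted p = 1.1e-04 in DKO and 3.4e-04 in WT) and that of Ccl4 0.30 (adjusted p = 0.014 in DKO and 0.00804 in WT). In that fit 4 of the 8 ligands were higher in DKO (Ccl3, Ccl4, Ccl5 and Ccl22) and 3 in WT (Ccl3, Ccl4 and Ccl5), and 13% and 11.4% of all genes.

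Ccl22, a Ccr4 ligand that dendritic cells make already at rest, read 11.64 and 11.67 in activated DKO and 11.23 and 11.25 in activated WT cDC2. At rest it read 11.37 and 11.26 in DKO and 11.04 and 11.14 in WT. The activation difference was 0.34 ± 0.09 in DKO (adjusted p = 0.0552, gaps of 0.03 activated and -0.11 resting) and 0.16 ± 0.09 in WT (adjusted p = 0.304, gaps of 0.02 and 0.10). The DKO difference passed with the block (adjusted p = 0.0221). It also passed without the brightness rule (adjusted p = 0.0458) and with the 75th percentiles of the arrays set equal (0.44, adjusted p = 0.0273).

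The remaining ligands had small activation differences, none past the threshold. They were dim and their detection was not tested, so a small difference or narrow interval is no measure of stable expression. Ccl17, the other Ccr4 ligand, read 6.13 to 6.59 over all 9 arrays and differed by -0.11 ± 0.13 in DKO (gaps of 0.01 activated and -0.22 resting) and -0.05 ± 0.13 in WT (gaps of -0.27 and 0.12). Its 95% confidence interval ran from -0.43 to 0.20 in DKO and from -0.37 to 0.26 in WT. Ccl9, a Ccr1 ligand of rodents, read 6.32 and 6.002 in activated DKO and 6.30 and 6.45 in activated WT, against 6.32 and 6.14 in resting DKO and 6.84 and 6.63 in resting WT cDC2. It differed by -0.07 ± 0.15 in DKO (adjusted p = 0.793, gaps of -0.32 and -0.18) and -0.36 ± 0.15 in WT (adjusted p = 0.169, gaps of 0.16 and -0.21). The Ccr2 ligands Ccl2 and Ccl7 read 5.70 to 6.18 on every array. Ccl2 differed by -0.11 ± 0.15 in DKO (gaps of -0.35 and -0.21) and -0.02 ± 0.15 in WT (gaps of -0.13 and -0.09). Ccl7 differed by -0.04 ± 0.14 in DKO (gaps of -0.30 and -0.20) and 0.04 ± 0.14 in WT (gaps of 0.18 and 0.10). The third, Ccl12, read 4.38 and 4.40 in activated DKO and 4.91 and 4.38 in activated WT, against 4.19 and 4.20 in resting DKO and 4.28 and 4.13 in resting WT cDC2. Its difference was 0.20 in DKO (gaps of 0.02 and 0.02) and 0.44 in WT (gaps of -0.53 and -0.15). Ccl12 stayed below the brightness rule throughout and was not tested. With the 75th percentiles set equal, which moved the median of all genes by 0.10 in DKO and 0.13 in WT, the small negative values of Ccl2 and Ccl17 in WT and of Ccl7 and Ccl9 in DKO turned positive.

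**Figure D3:**
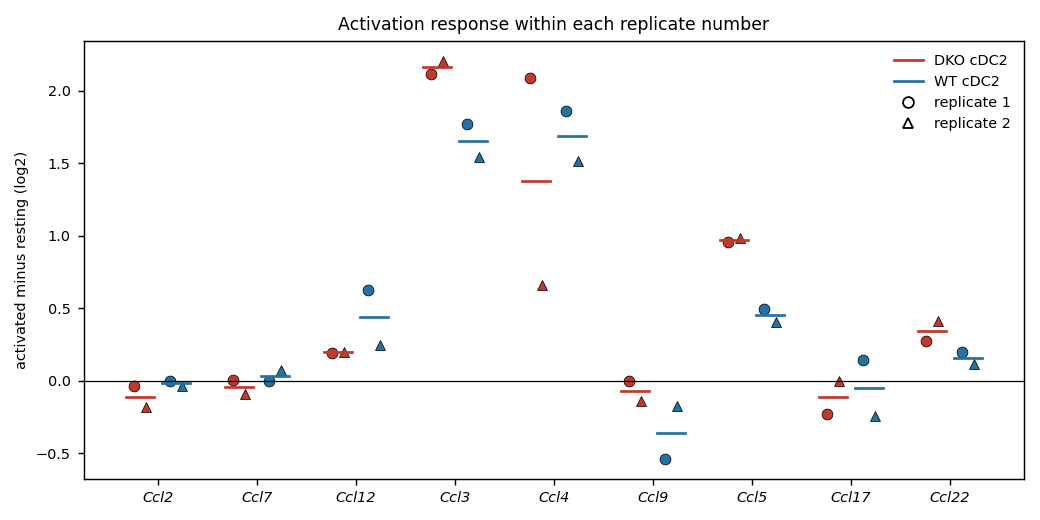
Activated minus resting log2 intensity (vertical axis) within each replicate number for every CC chemokine ligand, DKO cDC2 in red and WT cDC2 in blue; circles are replicate 1, triangles replicate 2 and bars their mean. Ccl3 lies at 2.12 and 2.21 in DKO and 1.77 and 1.54 in WT, and Ccl5 at 0.96 and 0.99 in DKO and 0.50 and 0.41 in WT, while Ccl2, Ccl7 and Ccl17 lie within 0.25 of 0.

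The median activation difference of the 8 ligands was 0.15 in DKO and 0.10 in WT cDC2, against -0.09 and -0.07 over all genes tested. Over all genes, 624 were higher and 848 lower in DKO and 426 higher and 705 lower in WT. With the 75th percentiles set equal, the share of higher genes among the calls was 59.6% in DKO and 65.4% in WT, against 42.4% and 37.7% without that step. Among related genes, 2 of 4 CC receptor genes tested passed the threshold in each genotype. Ccrl2, an atypical chemokine receptor, rose by 1.597 ± 0.24 in DKO and 1.38 ± 0.24 in WT. Ccr9, a receptor also used as a marker of plasmacytoid dendritic cells, fell by 1.95 ± 0.43 in DKO and fell by 2.09 ± 0.43 in WT (adjusted p from 0.0114 to 0.0355 for these 4 differences by limma). Of the other CC ligands, 4 of 11 were tested (Ccl1, Ccl6, Ccl19 and Ccl25) and 0 passed.

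Of 17 genes of TLR4 and NF-kappaB signalling tested, 3 rose and 1 fell past the threshold in DKO and 4 rose past it in WT. The median differences were 0.42 and 0.47. Nfkbiz, which codes for an atypical nuclear IkappaB protein, rose by 2.57 ± 0.17 in DKO and 2.07 ± 0.17 in WT. Of 18 genes of IFN-gamma and STAT signalling, 5 rose and 1 fell past the threshold in DKO and 3 rose and 1 fell past it in WT. Irf1 rose by 2.14 ± 0.16 in DKO and 2.32 ± 0.16 in WT. Of 9 factors of mRNA decay and stability, which act on many short-lived cytokine transcripts, only Zfp36l1 passed the threshold. It fell by 1.86 ± 0.20 in DKO and fell by 1.71 ± 0.20 in WT cDC2 (adjusted p up to 0.00915 for these 3 genes). The mean log2 level of these 9 factors was lower in replicate 2 than in replicate 1 in all 4 groups. It was 8.98 in replicate 1 and 8.81 in replicate 2 of activated DKO, and 9.12 and 8.96 in resting WT cDC2. Taken singly, 19% of all genes were lower in replicate 2 in all 4 groups. No such share was computed for means over lists.

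The genotype comparison asked which ligands depend on BATF and BATF3. None of the 8 passed in resting cDC2, activated cDC2 or the mean of both states by limma without the block, where 0.0186% of all genes were called in each. At an unadjusted p under 0.05 by limma there were 3 of the 8 ligands (Ccl9, Ccl5 and Ccl22) and 707 of 10728 genes at rest. After activation there were 1 of the 8 ligands (Ccl22) and 638 of 10728 genes. In the mean of both states Ccl9, Ccl5 and Ccl22 and 1157 of 10728 genes had such a p. The median difference of the ligands was -0.21 at rest and -0.21 after activation, against 0.01 over all genes in each. The arrays of both genotypes did not overlap for 3 of 8 ligands at rest (31.1% of all genes) and for 1 of 8 after activation (29.9% of all genes).

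Ccl3 was lower in DKO than in WT cDC2 within each replicate number, by 1.13 and 1.33 at rest and by 0.79 and 0.67 after activation. Its values in both genotypes overlap across the numbers, as listed above. Without the block the difference was -1.23 ± 0.96 at rest (adjusted p = 0.985, gaps of -1.78 in DKO and -1.58 in WT) and -0.73 ± 0.96 after activation (adjusted p = 1.00, gaps of -1.68 and -1.81). With the block Ccl3 fell by 1.23 ± 0.09 at rest (adjusted p = 0.0117) and by 0.73 ± 0.09 after activation (adjusted p = 0.0386). It was the only ligand lower in either state in that fit, where 0.419% of all genes were lower at rest and 0.289% after activation. The intervals of the block fit ran from -1.45 to -1.02 at rest and from -0.94 to -0.51 after activation. In fold, Ccl3 was 2.35 times lower at rest and 1.66 times lower after activation. Leaving out single arrays in the fit without the block moved its difference between -2.12 and -0.35 at rest and between -1.63 and 0.18 after activation, since it then set unequal numbers of each replicate against each other.

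Ccl5 stood lower in resting DKO than in resting WT cDC2 with little spread, by 0.58 ± 0.09 (adjusted p = 0.261, gaps of 0.08 in DKO and -0.02 in WT). Both DKO values, 10.99 and 11.06, were below both WT values, 11.62 and 11.60. With the block its adjusted p was 0.0544. After activation the values overlapped and the difference was -0.06 ± 0.09 (adjusted p = 1.00, gaps of 0.10 and -0.11), with an interval from -0.29 to 0.17. In the mean of both states Ccl5 was at -0.32 ± 0.07 (adjusted p = 0.175) and with the block fell by 0.32 ± 0.06 (adjusted p = 0.0398). In a list of 18 interferon-stimulated genes, all 18 had a negative genotype difference at rest, with 0 past the threshold. The median was -1.07, against 0.01 over all genes. After activation 16 of the 18 were negative and 2 positive, with 0 past the threshold and a median of -0.28. No share of negative differences over all genes was computed. Their mean log2 level was 9.07 and 9.23 on the resting DKO arrays, against 9.69 and 11.08 on the resting WT arrays, where replicate 2 stood apart. The Ccl5 difference was -0.54 without replicate 1 of resting DKO or -0.62 without replicate 2, and -0.57 without replicate 1 of resting WT or -0.59 without replicate 2. A link between the interferon-stimulated genes and the Ccl5 difference was not tested.

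Ccl22 stood higher in DKO in each same-numbered pair, by 0.33 and 0.12 at rest and by 0.41 and 0.42 after activation. Neither state showed overlap between genotypes. The difference was 0.22 ± 0.09 at rest (adjusted p = 0.754, gaps of -0.11 in DKO and 0.10 in WT) and 0.41 ± 0.09 after activation (adjusted p = 0.517, gaps of 0.03 and 0.02). In the mean of both states it was 0.32 ± 0.06, with an adjusted p of 0.17, and with the block Ccl22 rose by the same amount (adjusted p = 0.0376). In that block fit of both states 1 of 8 ligands was higher (Ccl22) and 2 were lower (Ccl3 and Ccl5), and 2.98% and 2.6% of all genes.

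Ccl4 stood at -0.28 ± 0.67 at rest (gaps of -0.25 in DKO and -0.98 in WT) and -0.59 ± 0.67 after activation (gaps of -1.67 and -1.32). It did not pass with the block either, with adjusted p of 0.747 and 0.43. Ccl9 was lower in both resting DKO arrays than in both resting WT arrays, at -0.50 ± 0.15 (adjusted p = 0.633, gaps of -0.18 and -0.21), and stood at -0.21 ± 0.15 after activation (adjusted p = 0.98, gaps of -0.32 and 0.16). Ccl2 and Ccl7 stood between -0.23 and -0.12 in both states (adjusted p from 0.974 to 1.00), beside the gaps given for their activation. Ccl17 was at 0.17 ± 0.13 at rest (gaps of -0.22 and 0.12) and 0.11 ± 0.13 after activation (gaps of 0.01 and -0.27). The untested Ccl12 stood at -0.01 at rest (gaps of 0.02 in DKO and -0.15 in WT) and -0.25 after activation (gaps of 0.02 and -0.53). After activation WT replicate 1 read 4.91 and the other 3 activated arrays 4.38 to 4.40.

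**Figure D4:**
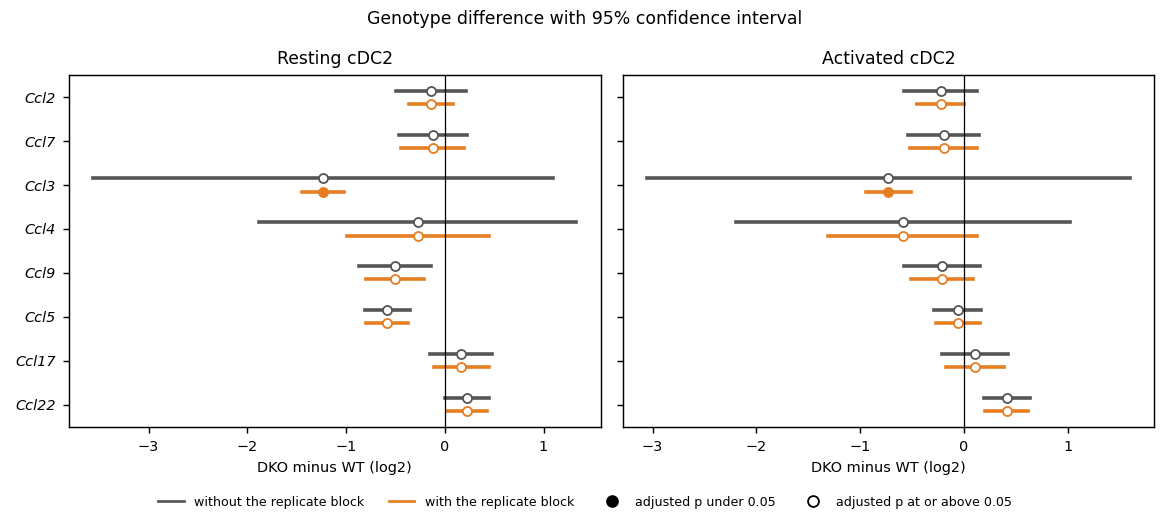
DKO minus WT log2 difference (horizontal axis) of the 8 tested CC chemokine ligands in resting and activated cDC2, with 95% confidence intervals from limma without (grey) and with (orange) the replicate number as a block; filled points have an adjusted p under 0.05. The filled points are those of Ccl3 with the block, at -1.23 at rest and -0.73 after activation.

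Markers of macrophages and monocytes, cells known to make several of these ligands, were set beside the genotype differences. Of 7 macrophage genes tested 5 had a negative difference in each state and 0 passed the threshold, with a median difference of -0.50 at rest and -0.56 after activation. At rest C1qa averaged 6.27 in DKO against 7.01 in WT cDC2, while Spic averaged 9.32 against 8.67. The summed intensity of all 9, in which Spic and Hmox1 weigh most, was 1812 and 1499.9 in resting DKO against 1974 and 1618 in resting WT. After activation it was 911 and 989 in DKO against 1337 and 1053 in WT cDC2. All 4 monocyte genes tested had a negative difference in both states, with 0 past the threshold, and summed intensities over 6 genes of 520.3 and 611 in resting DKO against 832 and 667 in resting WT. After activation these were 436 and 414 in DKO and 637 and 526 in WT. Mertk, Cd163, Ccr2 and Fcgr1 were below the brightness rule in all group means and were not tested. The part of these cells in the values of the ligands was not tested.

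The difference between the activation responses (DKO minus WT) passed for none of the 8 ligands. By limma 0 of 10728 genes passed, while 121 had an unadjusted p under 0.05. With the block it passed for 0 genes as well, with 368 at such a p. Ccl5 had the smallest p of the ligands, at 0.52 ± 0.13 (adjusted p = 1.00, interval from 0.20 to 0.84), and its response was larger in DKO in both replicate numbers. Ccl3 was at 0.51 ± 1.36, with an error of 0.13 under the block (adjusted p = 1.00 in both). Ccl22 was at 0.19 ± 0.13 and Ccl4 at -0.32 ± 0.94. The comparisons within each genotype and each state share arrays with this one.

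Resting WT cDC1 were set against resting WT cDC2 to place the ligands by subset, with the single cDC1 array assumed to vary as the others. Ccl5 was lower in cDC1, at 10.66 against 11.62 and 11.60 in cDC2, a difference of -0.95 ± 0.12 (adjusted p = 0.00544, gap of -0.02 in cDC2). It was the only ligand past the threshold of 8, where 6.56% of all genes were lower. The cDC1 array lay outside both cDC2 arrays for 7 of 8 ligands and for 78.1% of all genes. The call held without either cDC2 array (adjusted p up to 0.0282) and was lost with these 3 arrays alone in the fit (adjusted p = 0.207). Ccl22 read 10.67 in cDC1 against 11.04 and 11.14, at -0.42 ± 0.11 (adjusted p = 0.0586, gap of 0.10), and passed without the brightness rule (adjusted p = 0.0407) and with quantile normalization (0.0362). Ccl3 at 6.58 against 9.76 and 8.19 differed by -2.39 ± 1.18 (adjusted p = 0.235, gap of -1.58), and Ccl9 at 6.19 against 6.84 and 6.63 by -0.54 ± 0.18 (adjusted p = 0.105, gap of -0.21). Ccl4 stood at -0.74 ± 0.82 (gap of -0.98). The cDC1 label carries no replicate number, so the block was fitted with that array as number 1 and as number 2, an alternative added after the data were seen. As number 1, 5 of 8 ligands were lower in cDC1 (Ccl3, Ccl4, Ccl9, Ccl5 and Ccl22) and 17.7% of all genes, and as number 2, 3 of 8 (Ccl3, Ccl5 and Ccl22) and 16.4%. The Ccl3 difference was -3.25 ± 0.11 as number 1 and -1.54 ± 0.11 as number 2 (adjusted p = 3.2e-05 and 3.9e-04), and Ccl22 kept an adjusted p of 0.0283 and 0.0293. Ccl9 and Ccl4 passed as number 1 (adjusted p = 0.0246 and 0.0418) and did not as number 2 (0.0639 and 0.722). Ccl2, Ccl7 and Ccl17 differed by -0.08, -0.05 and 0.07, within 1 standard error each, beside cDC2 gaps of -0.09, 0.10 and 0.12. Ccl12, untested, differed by 0.05 (gap of -0.15).

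Over the 5 groups, the mean level of Ccl5 was highest in activated cDC2 of both genotypes, which did not differ beyond their spread, followed by resting WT, resting DKO and cDC1. That of Ccl22 was highest in activated DKO, followed by resting DKO and activated WT, whose nearest arrays read 11.26 and 11.25, then resting WT and cDC1. Ccl3 followed the order activated WT, activated DKO, resting WT, resting DKO and cDC1, with neighbours in that order overlapping except that cDC1 lay below all others. Ccl4 ran in the same order, with cDC1 again lowest.

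By Pearson correlation of log2 values over the 9 arrays, a description without a test in which the points share activation state and replicate number, Ccl3 was most like Lrrfip1 (r = 0.998), Atf3 (0.986) and Gch1 (0.985). Ccl4 was most like Slc37a3 (0.984), Homer1 (0.982) and Herpud2 (0.977). For Ccl5 these genes were Parp14 (0.975), Morc3 (0.972) and Zc3hav1 (0.972), and for Ccl22 they were Foxk1 (0.978), Fam107b (0.965) and Pias3 (0.957). Among the ligands, Ccl3 and Ccl4 correlated at 0.937 and Ccl3 and Ccl5 at 0.836. The neighbours Ccl22 and Ccl17 correlated at 0.123, with Ccl17 between 6.13 and 6.59 on all arrays. Whether Ccl17 was above background was not tested, so this value is no measure of separate regulation. The dim ligands were most like Zfp488 for Ccl2 (0.95), Spaca3 for Ccl7 (0.889), Arhgap39 for Ccl9 (0.935) and Pias4 for Ccl17 (0.925).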

How the data were processed

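The submitters' processing notes name Affymetrix Expression Console and RMA, without versions; RMA corrects background, normalizes arrays to a shared distribution and summarises probes. The authors deposited intensity values on a linear scale, with array medians from 53.4 to 55.6, and log2 was taken here. The genome build of the probes is not given in the sources used here. Of 28853 transcript clusters, 21789 had 1 symbol, 1621 several and 5443 none in the platform annotation. The brightest cluster stood for a gene. Groups and replicate numbers came from sample titles. limma 3.58.1 in R 4.3.3 fitted 1 mean per group over 9 arrays (4 residual degrees of freedom), with Benjamini-Hochberg adjustment over 10728 genes and a threshold of 0.05. The fit was also run on simulated data with noise independent between arrays and planted changes larger than the differences of Ccl5 and Ccl22. That run therefore does not test the shared replicate gaps or such smaller differences. The number of arrays limits the precision. Gaps between replicates 1 and 2 correlated at 0.454 or more between all groups, so a block fit is printed where it changes a call. The labels state no pairing, so this rests on the data. Named genes were the 9 ligands, Batf, up to 4 genes of each list with the largest change past the threshold, of which examples are given, and the 3 genes most correlated with each ligand, of which the first is given for the dim ones. Members, lists and tests were chosen with earlier results of these data known. Alternatives were no brightness rule, quantile or 75th percentile scaling, the mean of a gene's clusters, only the compared groups in the fit, an intensity trend, the block and leaving out each cDC2 array.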

Additional observations from a re-analysis of the deposited data

How the results depend on the processing

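Scaling, the brightness rule, the mean of clusters and the intensity trend left the counts of ligands past the threshold as reported, except 2 higher in DKO activation without the brightness rule or with equal 75th percentiles, and 2 lower in cDC1 without the rule or with quantile normalization. With the replicate block these counts were 1 and 1 for genotype at rest and after activation, 3 for both states, 4 and 3 for activation in DKO and WT and 4 for cDC1 with its unnumbered array set midway (5 and 3 as number 1 and 2), and genes called numbered 79, 61, 599, 4080, 3791 and 3573 in that order, against 2, 2, 2, 1472, 1131 and 1464 without it (3751 and 3286 for cDC1 as number 1 and 2, where Ccl2 turned to 0.015 as number 2). With only the compared groups in the fit, genes called were 0 and 0 for genotype at rest and after activation (630 and 508 at an unadjusted p under 0.05 by limma), 757 and 5 for activation in DKO and WT and 0 for cDC1 (2159 at such a p), and 0 ligands passed in WT activation and cDC1. With an intensity trend 1 gene was called at rest. Leaving out 1 array gave 0 to 6 genes for genotype at rest, 0 after activation (421 to 732 at an unadjusted p under 0.05 by limma), 2 to 4 for both states, 217 to 617 and 63 to 550 for activation in DKO and WT, and 798 to 828 for cDC1. Ligands past the threshold were then 0 in WT activation and 1 each in DKO activation and cDC1.

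Directions that turned belonged to values not past the threshold. By scaling, these were activation values of Ccl2 (0.0013 with quantile normalization and 0.11 with equal 75th percentiles) and Ccl17 (0.077) in WT and of Ccl7 (0.059) and Ccl9 (0.032) in DKO. Leaving out 1 array turned some. Genotype values ran from -0.76 to 0.21 for Ccl4 at rest and, after activation, from -1.63 to 0.18 for Ccl3, -1.43 to 0.25 for Ccl4 and -0.028 to 0.24 for Ccl17. Activation values in DKO ran from -0.29 to 0.068 for Ccl2, -0.19 to 0.11 for Ccl7 and -0.23 to 0.092 for Ccl9. In WT they ran from -0.083 to 0.045 for Ccl2, -0.053 to 0.12 for Ccl7 and -0.19 to 0.082 for Ccl17. Interaction values ran from -0.27 to 0.087 for Ccl2, -0.23 to 0.073 for Ccl7, -0.40 to 1.41 for Ccl3, -1.15 to 0.52 for Ccl4 and -0.20 to 0.070 for Ccl17. Ccl7 in cDC1 ran from -0.10 to 0.0052. For Ccl3 and Ccl4 such a fit compares unequal replicate numbers. In other cases the cause was not tested.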
